A study of Mus musculus with 12 samples.

Results

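The 35 genes described here are markers of endothelial cells, the cells that line blood vessels, followed across mouse kidney glomeruli and podocyte cultures. They were taken from a fixed list of 36 names, of which Eltd1 is the older symbol of Adgrl4, and were matched to array probes through the RefSeq accession of each probe. All 35 had a probe, out of 20144 genes with a named probe, and all 35 were among the 15226 genes tested, for which a probe had to be well above background on 2 or more of the 12 arrays. Of the 35, 6 met that filter through glomerular arrays alone, so their low values in culture are in part a condition of being tested. The samples formed 6 groups of 2. All samples carried an inducible Cre recombinase with floxed Foxc1 and a second floxed gene, and the labels number that second gene differently from sample to sample (Foxc2 in the first). The series title names Foxc1 and Foxc2, a pair of forkhead transcription factors. Control glomeruli came from mice given no agent, and treated glomeruli from mice injected with tamoxifen on 3 days in a row at 8 weeks of age, the glomeruli being isolated on day 7. Podocyte primary cultures, grown out from isolated glomeruli of adult mice, were mock-treated or given tamoxifen, and their titles read 4 or 7 days. The labels name neither the promoter that drives Cre nor the age of the control mice. Drug and recombination came together in every treated sample and cannot be told apart. The glomerular labels name separate mice, whereas for the cultures it is not stated if the numbers stand for separate cultures, so p-values may measure a technical spread.

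A glomerulus is a tuft of capillaries whose wall is a fenestrated endothelium, a shared basement membrane and the podocytes that wrap it, with mesangial cells between the loops. Endothelial identity is held by transcription factors of the ETS family (Erg, Fli1) and the SOXF family (Sox7, Sox17, Sox18), which act on genes of junctions, vascular receptors and coagulation control. Glomerular endothelium is known for its high Ehd3, Emcn and Egfl7, and depends on VEGF from podocytes.

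Levels are given as the log2 of the background-subtracted signal relative to the 75th percentile of the same array, so 0 is that percentile and each unit is a doubling. Between 57.9% and 63.4% of spots were well above background on each array by the scanner software's flag, 0 spots were saturated, and the correlation between the 2 arrays of a group was 0.983 to 0.99. Foxc2 was at 2.10 and 2.24 in control glomeruli, at -1.12 and -0.19 in treated ones, and was not well above background in any treated culture. Foxc1 was at 2.92 and 2.81 in control glomeruli and at 0.92 and 1.09 in treated ones. In treated cultures Foxc1 was at -5.78 and -1.74 at day 4 and at -8.21 and -3.26 at day 7, replicate 2 being far above replicate 1 on both days, against 2.62 to 4.32 in mock cultures. By limma Foxc2 passed in all 3 tamoxifen comparisons, whereas Foxc1 did not pass in any. Foxc1 had a limma adjusted p of 0.141 at day 4, 0.0569 at day 7 and 0.623 in glomeruli. Yet both treated glomeruli lay well below both controls for Foxc1, with close replicates. Limma's spread for a gene is shared by all 12 arrays. Its glomerular p-value for Foxc1 therefore also carries the wide scatter between treated culture replicates. Of 10 podocyte markers, all were well above background on every culture array, though their summed signal was 68.1 to 87.7 in cultures against 499 to 664 in control glomeruli, in units of the array's 75th percentile. The glomerular arrays lay on 1 slide, the day 4 cultures on a second and the day 7 cultures on the third. A difference between glomeruli and cultures, or between days, therefore cannot be told apart from the slide, while each tamoxifen comparison lies within a slide. These are bulk samples, in which fewer cells of a type and less RNA per cell cannot be told apart.

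Most of the endothelial genes were far lower in the cultures than in glomeruli, although most could still be read there. In control glomeruli 34 of the 35 were well above background on both arrays. The exception, Podnl1, a small leucine-rich proteoglycan of the extracellular matrix, was read on 1 of the 4 glomerular arrays and on all 8 culture arrays, so the data do not show it as an endothelial marker here. Of the 34, 23 (67.6%) stayed well above background on all 8 culture arrays, 7 (20.6%) did so on 1 to 7 arrays and 4 (11.8%) on none. Among all 13693 genes read in both control glomeruli those shares were 89.3%, 6.13% and 4.54%. Each count rests on 1 probe a gene. For Cd34 and Ptprb, both among the 23, a second probe was well above background on only 4 of the 12 arrays. The second probes of Plvap and Nos3 were so on all 12. The summed signal of the 35 genes was 575 to 680 in control glomeruli, 499 to 523 in treated glomeruli and 12.6 to 23.2 in the 8 cultures. Such a sum follows its brightest probes. The 7 coagulation, transport and other genes, Thbd among them, made up 35.6 to 38.1 of it in control glomeruli and 4.87 to 9.72 in cultures.

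**Figure D1:**
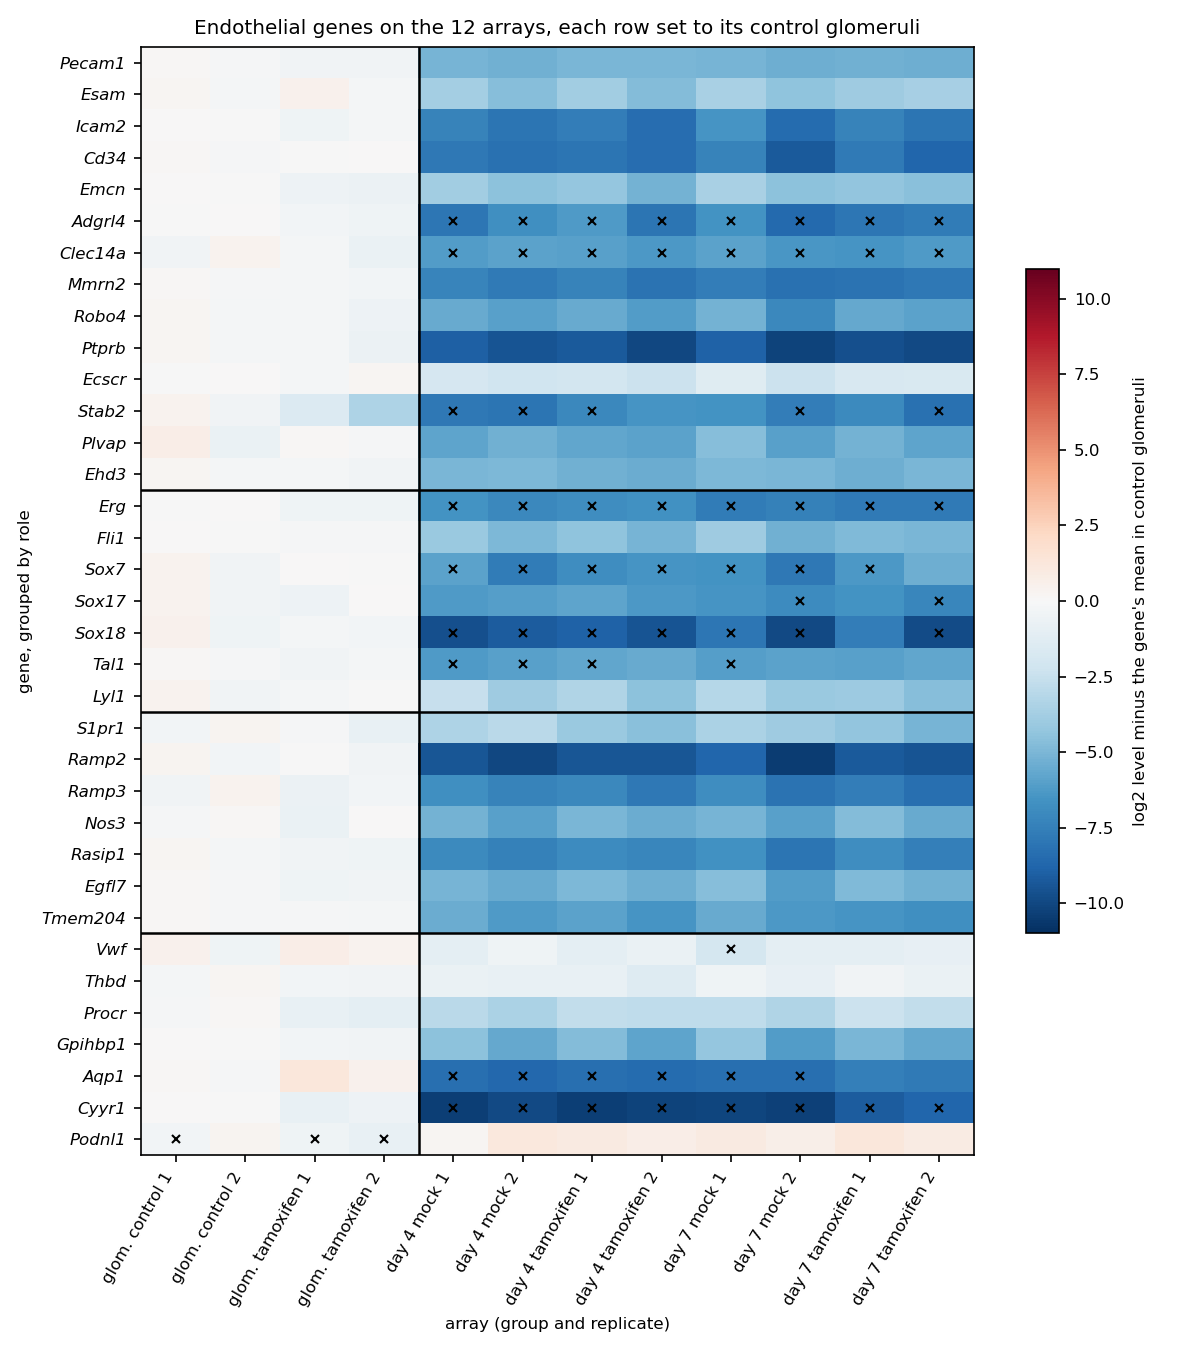
Each cell is the log2 level of 1 gene on 1 array minus the mean of the same gene in the 2 control glomeruli (blue lower, red higher), and a cross marks a probe not well above background on that array. Colours are read along a row only. Nearly all rows turn blue in the 8 cultures, and the crosses gather in Adgrl4, Clec14a, Cyyr1, Erg, Sox7, Sox18, Aqp1, Stab2 and Tal1.

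The members lost from view in every culture were Adgrl4, an adhesion G protein-coupled receptor of endothelium, Clec14a, a C-type lectin-like surface glycoprotein, Cyyr1, a small membrane protein, and the ETS factor Erg. Whether a gene is counted as read depends on the cut. With a cut at the mean plus 3 SD of the negative control spots, Clec14a was read on 6 of the 8 culture arrays, Adgrl4 on 3, Cyyr1 on 1 and Erg on 0. The promoter sequences of these 4, the 250 bases before the RefSeq transcription start on the gene's own strand, are shown with those of Procr, Lyl1 and Emcn, the members with the smallest falls in culture among those with an entry in the table. Entries were found for 16 members with 21 starts (RefSeq, build GRCm38.p6). Positions are chr3:151437632-151437881, plus strand for Adgrl4, chr12:58269259-58269508, minus strand for Clec14a, chr16:85550374-85550623, minus strand for Cyyr1, chr16:95459349-95459598, minus strand for the one of 3 Erg starts that held a match, chr2:155750967-155751216, plus strand for Procr, chr8:84701207-84701456, plus strand for Lyl1 and chr3:137340828-137341077, plus strand for Emcn. Capitals mark matches, on either strand, to the ETS core words CGGAAG and AGGAAG, the forkhead word TGTTTA and the SOX word AACAAT.
Adgrl4: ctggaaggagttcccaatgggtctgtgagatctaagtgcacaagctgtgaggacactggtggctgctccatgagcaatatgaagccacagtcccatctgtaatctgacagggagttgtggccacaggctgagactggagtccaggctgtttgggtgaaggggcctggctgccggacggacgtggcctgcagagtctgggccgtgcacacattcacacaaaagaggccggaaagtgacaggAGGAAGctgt
Clec14a: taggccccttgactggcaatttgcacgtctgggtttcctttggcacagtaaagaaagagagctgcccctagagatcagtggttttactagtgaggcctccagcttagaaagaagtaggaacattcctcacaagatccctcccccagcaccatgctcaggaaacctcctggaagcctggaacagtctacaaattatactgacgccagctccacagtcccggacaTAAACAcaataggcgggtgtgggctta
Cyyr1: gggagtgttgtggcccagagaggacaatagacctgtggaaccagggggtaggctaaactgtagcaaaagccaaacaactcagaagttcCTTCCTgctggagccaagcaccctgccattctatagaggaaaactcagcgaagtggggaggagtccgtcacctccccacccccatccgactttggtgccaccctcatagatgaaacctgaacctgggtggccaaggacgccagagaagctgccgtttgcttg
Erg: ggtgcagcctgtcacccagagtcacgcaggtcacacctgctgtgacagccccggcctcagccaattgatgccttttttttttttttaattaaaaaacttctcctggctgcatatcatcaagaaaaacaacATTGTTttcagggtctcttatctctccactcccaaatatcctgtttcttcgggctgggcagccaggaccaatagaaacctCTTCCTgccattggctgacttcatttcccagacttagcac
Procr: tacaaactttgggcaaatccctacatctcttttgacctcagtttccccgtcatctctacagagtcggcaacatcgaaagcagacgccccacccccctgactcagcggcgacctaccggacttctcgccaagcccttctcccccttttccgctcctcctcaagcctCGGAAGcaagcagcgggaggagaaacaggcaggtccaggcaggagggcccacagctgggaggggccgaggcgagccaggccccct
Lyl1: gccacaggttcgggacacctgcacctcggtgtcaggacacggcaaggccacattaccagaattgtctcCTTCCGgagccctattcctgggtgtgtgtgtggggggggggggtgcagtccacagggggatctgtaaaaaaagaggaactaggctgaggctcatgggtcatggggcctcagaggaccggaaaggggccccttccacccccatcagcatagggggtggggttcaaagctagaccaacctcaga
Emcn: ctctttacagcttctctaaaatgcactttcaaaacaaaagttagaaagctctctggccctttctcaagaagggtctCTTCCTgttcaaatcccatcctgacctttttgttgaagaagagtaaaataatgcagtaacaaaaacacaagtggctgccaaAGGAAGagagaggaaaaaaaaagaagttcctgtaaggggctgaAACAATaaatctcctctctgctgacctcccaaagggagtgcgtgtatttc
At least 1 ETS word was in 14 of the 21 member windows (66.7%), in 13 of 16 genes, against 39.2% of all 32851 windows of this length. AGGAAG was in 12 of 21 windows (57.1%, against 29.5%) and CGGAAG in 3 (14.3%, against 13.6%). TGTTTA was in 1 window, that of Clec14a (4.76%, against 12%), and AACAAT in 2, those of Emcn and Erg (9.52%, against 9.42%). Windows of one gene are not independent, the words were searched as exact letters, and a match is not a binding site.

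Mock-treated cultures were compared with control glomeruli, which asks how much of the endothelial signal of the tuft remained once podocytes had been grown out. All 34 members read in both control glomeruli were lower by their means, against 42.1% of all genes, and 33 of them had every mock culture below both control glomeruli, against 29.4%. By limma on all 12 arrays 34 members passed at a Benjamini-Hochberg adjusted p under 0.05 as lower, against 26% of all genes tested, and Podnl1 passed as higher, against 37.6%. The 34 include the 6 members that met the filter for testing through glomerular arrays alone. The median difference of the 35 was -5.94, or -5.65 with the 7 genes dim in all mock cultures set at their bounds (defined with Adgrl4 and Clec14a), and that of all genes tested was 0.17. With normexp background correction the members' median was -4.55. Of the 34 lower members, 7 were not well above background on any of the 4 mock arrays, 4 on some, and 23 were read on all 4. Among these 23 the signal that remained was 0.126% to 59.8% of the glomerular level (median 2.42%), with 20 under 10% and 7 under 1%.

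**Figure D2:**
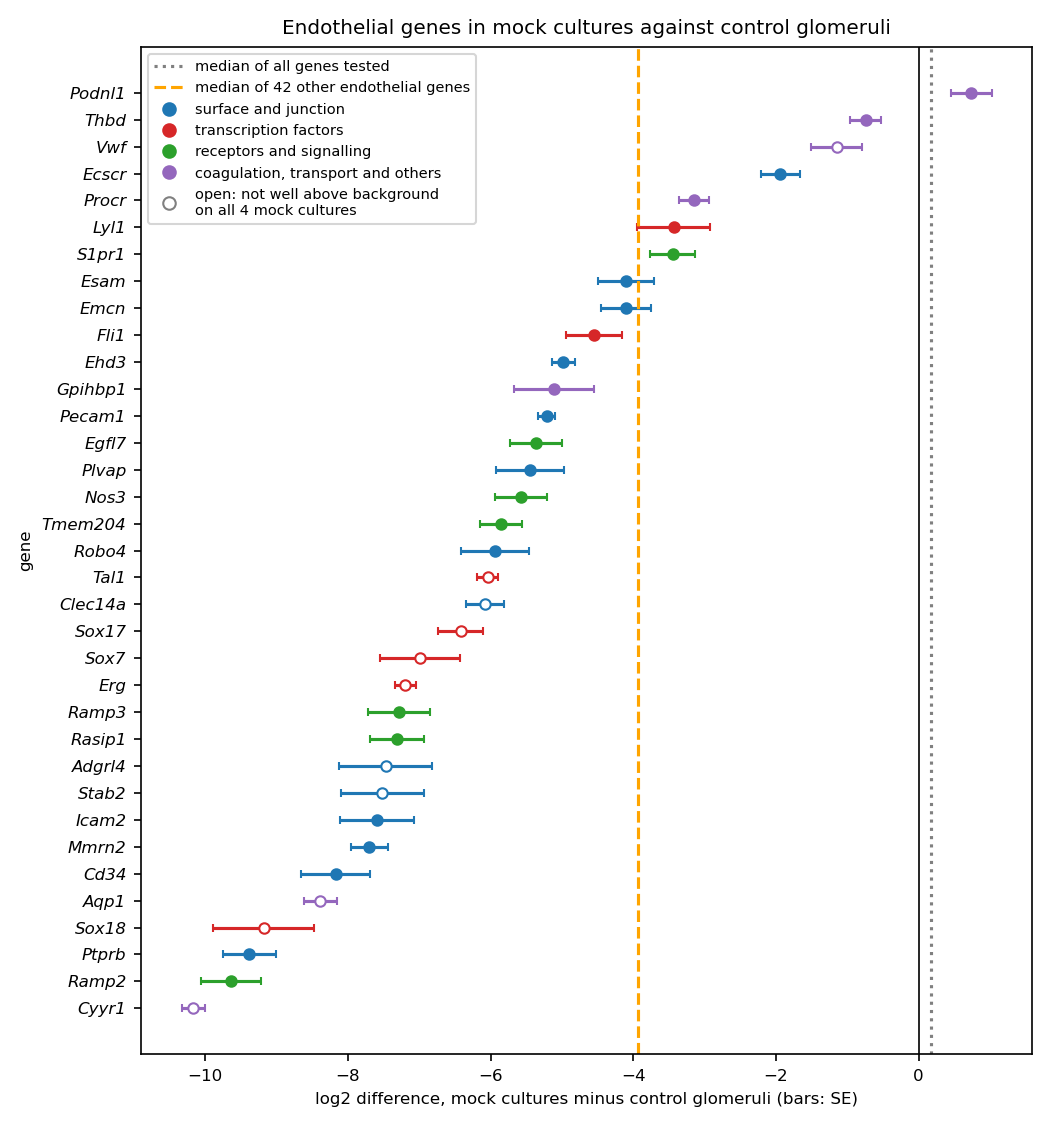
Points are log2 differences, mock cultures (4 arrays) minus control glomeruli (2 arrays), with limma's SE as bars, coloured by the role of the gene. Open points were not well above background on all 4 mock arrays, and their fitted position is not a measured size where no mock array was read. The dotted line is the median of all genes and the dashed line that of 42 other endothelial genes. Cyyr1 and Ramp2 lie lowest, Thbd and Vwf lie nearest to 0 among the lower genes, and only Podnl1 lies above 0.

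Surface and junction genes, which hold endothelial cells together and meet the blood, fell in 14 of 14 cases (median -6.01). Pecam1, the adhesion receptor of endothelial junctions that leukocytes and platelets also carry, read 1.46 and 1.21 in control glomeruli and -3.77, -3.94, -3.76 and -4.03 in the mock cultures. The 4 cultures lay close together and far below both glomeruli, and Pecam1 fell by 5.21 (SE 0.12, adjusted p = 4.04e-08 by limma), to 2.69% of the glomerular level. Ptprb, the endothelial phosphatase that acts on Tie2 and VE-cadherin, read 5.48 and 5.13 against -3.65, -4.19, -3.61 and -4.84, a difference of -9.38 (SE 0.37, adjusted p = 5.32e-07 by limma). This was the deepest fall among surface genes read on every culture array. Icam2, a ligand for leukocyte integrins, read 6.19 and 6.11 against -1.20, -1.87, -0.38 and -2.35 and fell by 7.60 (SE 0.52). Cd34, a sialomucin shared with blood progenitors, fell by 8.17, Mmrn2, a matrix partner of Clec14a, fell by 7.70, and Robo4, a guidance receptor of vessels, fell by 5.94.

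Adgrl4 and Clec14a, not well above background in any culture, can only be bounded. The bound sets the glomerular mean against a floor, which on each culture array is the dimmest signal still called well above background, or the probe's reading where that is higher. On that scale Adgrl4 was at least 106-fold lower and Clec14a at least 57.2-fold lower. Stab2, a scavenger receptor for hyaluronan, passed as lower but was read on only 1 of 4 mock arrays, so its fitted difference of -7.52 (SE 0.58) rests mostly on signal not well above background. Shallower falls were found for Esam, a junctional adhesion molecule (4.10), and for Emcn, a sialomucin of capillary and venous endothelium, which read 4.63 and 4.47 in control glomeruli and 0.74, 0.02, 0.99 and 0.03 in mock cultures. Emcn thus kept 5.81% of its glomerular level. Ehd3, an endocytic ATPase enriched in glomerular endothelium, read 6.72 and 6.22 against 1.47, 1.54, 1.53 and 1.41 and kept 3.17% (fall of 4.98, SE 0.16). Plvap, which forms the diaphragms of fenestrae and caveolae, fell by 5.45 (SE 0.48). Its glomerular controls lay apart, at 3.50 and 1.99. Ecscr, a sialomucin of vessels, had the smallest fall of the group, from 1.55 and 1.61 to -0.26, -0.59, 0.22 and -0.79 (a fall of 1.94, SE 0.27, adjusted p = 0.000415), which left 26.1%.

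Transcription factors fell in 7 of 7 cases (median -6.42) and were the role least often readable in culture, with 2 of 7, Fli1 and Lyl1, well above background on all 8 culture arrays. They also started low, at a mean level of 1.07 and 0.58 in control glomeruli. Surface genes started at 3.68 and 3.40, receptors and signalling genes at 4.11 and 4.13, and the remaining role at 0.54 and 0.54. The part of the starting level in what stayed readable was not tested. Erg read -0.21 and -0.06 in control glomeruli, was not well above background on any culture array, and was at least 47.5-fold lower in mock cultures. Since it met the filter for testing through glomerular arrays alone, no p-value is given for that fall. The other probe for Erg was also read on the 4 glomerular arrays alone. Fli1, which blood cells also express, read 1.59 and 1.45 against -2.56, -3.38, -2.39 and -3.80 and fell by 4.55 (SE 0.39, adjusted p = 3.32e-05), to 4.26%. The cultures of Fli1 therefore spread over more than a doubling, with replicate 1 above replicate 2 on both days. Among the SOXF factors, Sox18 was at least 276-fold lower and Sox7 at least 50.3-fold lower, each read on 1 of 8 culture arrays, a treated one at day 7. Sox17, a factor of arterial endothelium, read 1.71 and 0.89 in control glomeruli, was read on 3 of the 4 mock arrays and fell by 6.42 (SE 0.31). Tal1 and Lyl1 are related basic helix-loop-helix factors of blood and vessel precursors. Tal1 passed as lower (adjusted p = 4.88e-08) but was read on 1 of the 4 mock arrays, so its fitted difference of -6.04 rests mostly on signal not well above background. Lyl1, read on all 4, fell by 3.43 (SE 0.51), which left 9.25%.

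Receptors and signalling genes fell in 7 of 7 cases (median -5.86) and all 7 stayed readable on every culture array. Ramp2, which turns the calcitonin receptor-like receptor into a receptor for adrenomedullin, read 5.51 and 4.99 in control glomeruli and -4.13, -4.75, -3.50 and -5.15 in mock cultures. It fell by 9.64 (SE 0.42, adjusted p = 9.28e-07) and kept 0.126%, the least of the 23 members read throughout. Ramp3, its relative, fell by 7.28 (SE 0.44). Rasip1, a Ras-interacting protein needed for vessel lumens, fell by 7.31 (SE 0.38), Tmem204, a membrane protein, by 5.86 (SE 0.29), and Nos3, the endothelial nitric oxide synthase, fell by 5.57 (SE 0.36). Egfl7, a secreted matrix protein of vessels, read 6.61 and 6.40 against 1.43, 0.94, 1.79 and 0.37, so it fell by 5.37 (SE 0.37). Its mock cultures stayed above the 75th percentile of their arrays. S1pr1, the receptor through which sphingosine 1-phosphate steadies the barrier, fell least, from 1.78 and 2.33 to -1.32, -0.95, -1.44 and -1.87 (a difference of -3.45, SE 0.32), with 9.16% left.

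The coagulation, transport and other genes were the most divided. Thbd, the thrombin receptor that starts protein C activation, read 3.23 and 3.73 in control glomeruli and 2.75, 2.64, 2.97 and 2.60 in mock cultures. It fell by 0.74 (SE 0.22, adjusted p = 0.0175), to 59.8%, the mildest fall of any member. That call was lost without control replicate 2 (a fall of 0.49, adjusted p = 0.145) and with median scaling (adjusted p = 0.061). Procr, the protein C receptor, read 1.30 and 1.61 against -1.54, -2.06, -1.30 and -1.86 and fell by 3.15 (SE 0.21, adjusted p = 8.82e-06 by limma), to 11.3%. Thbd and Procr are also expressed by several epithelia and by leukocytes. Which cells carried their remaining signal was not tested. Vwf, the platelet-binding protein stored in endothelial granules, was low on the glomerular arrays too, at -3.54 and -4.57. Its mock cultures, 3 of them well above background, read -5.15, -4.51, -6.03 and -5.12 and overlapped the controls, and the fall of 1.15 (SE 0.36, adjusted p = 0.0233) was lost without control replicate 1 (a fall of 0.63, adjusted p = 0.209), without replicate 1 of either mock group (adjusted p = 0.0604 at day 4 and 0.0539 at day 7) and in 4 other settings. Gpihbp1, which carries lipoprotein lipase across capillary endothelium, fell by 5.12 (SE 0.56). Cyyr1 and Aqp1, read in 0 of the 4 mock cultures, were at least 339-fold and at least 302-fold lower. Aqp1, a water channel, is also a gene of the proximal tubule, and all 12 tubule markers were lower in the cultures as well. Podnl1 read -6.03 and -5.41 in control glomeruli and -5.47, -4.56, -4.77 and -5.11 in mock cultures. These groups overlapped, and its call as higher (0.74, SE 0.28, adjusted p = 0.048) was lost in 16 of 23 other settings, among them leaving out control replicate 1 (0.43, adjusted p = 0.319).

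Other endothelial genes, chosen from the same knowledge of the cell type with earlier results known, gave a further view. Of 46 listed, 42 were tested, 35 of them passed as lower in mock cultures and 0 as higher (median -3.93). Cldn5, the tight junction claudin of endothelium, fell by 9.93 (SE 0.33), and She, an adaptor protein, fell by 8.41 (SE 0.53), while the angiopoietin receptor Tek and its relative Tie1 were at least 177-fold and at least 249-fold lower. The largest differences that did not pass were those of Lyve1, a hyaluronan receptor of lymphatic endothelium and some macrophages (2.24, SE 1.27, adjusted p = 0.156), and Cav1, the coat protein of caveolae (0.61, SE 0.25, adjusted p = 0.058). Chosen after their values were seen, as receptors and junction genes of endothelium, were Cdh5, Flt1 and Kdr. Cdh5, which is VE-cadherin, fell by 5.70 (SE 0.41) and Flt1, a VEGF receptor, by 7.03 (SE 0.31). Kdr, the main VEGF receptor of endothelium, fell by 1.77 (SE 0.17) and kept 29.4% of its level. Of the 41 read in both control glomeruli, 30 (73.2%) were read on all 8 culture arrays and 6 (14.6%) on none. Both lists were made of genes known for vessels, so their shared direction is no independent evidence. Other cell type lists differed between the same samples. All 10 podocyte markers passed as lower in mock cultures (median -3.77). Of 10 leukocyte markers, 2 passed as lower and 0 as higher (median 0.19). Of 11 mesangial and mural markers, 9 passed as lower in mock cultures and 1 as higher (median -1.74), although their summed signal was 47.5 to 93.9 in control glomeruli and 212 to 317 in the 8 cultures. The 1 higher was Acta2, smooth muscle actin, at 1.59 and 1.55 in control glomeruli and 7.57 to 7.84 in mock cultures. Of 6 fibroblast markers, 3 passed as higher and 2 as lower (median 0.55), with sums of 19.5 to 35.3 and 70.4 to 187. Tubule markers went from 110 to 118 down to 0.663 to 0.964. The part of these lists in the endothelial differences was not tested.

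**Figure D3:**
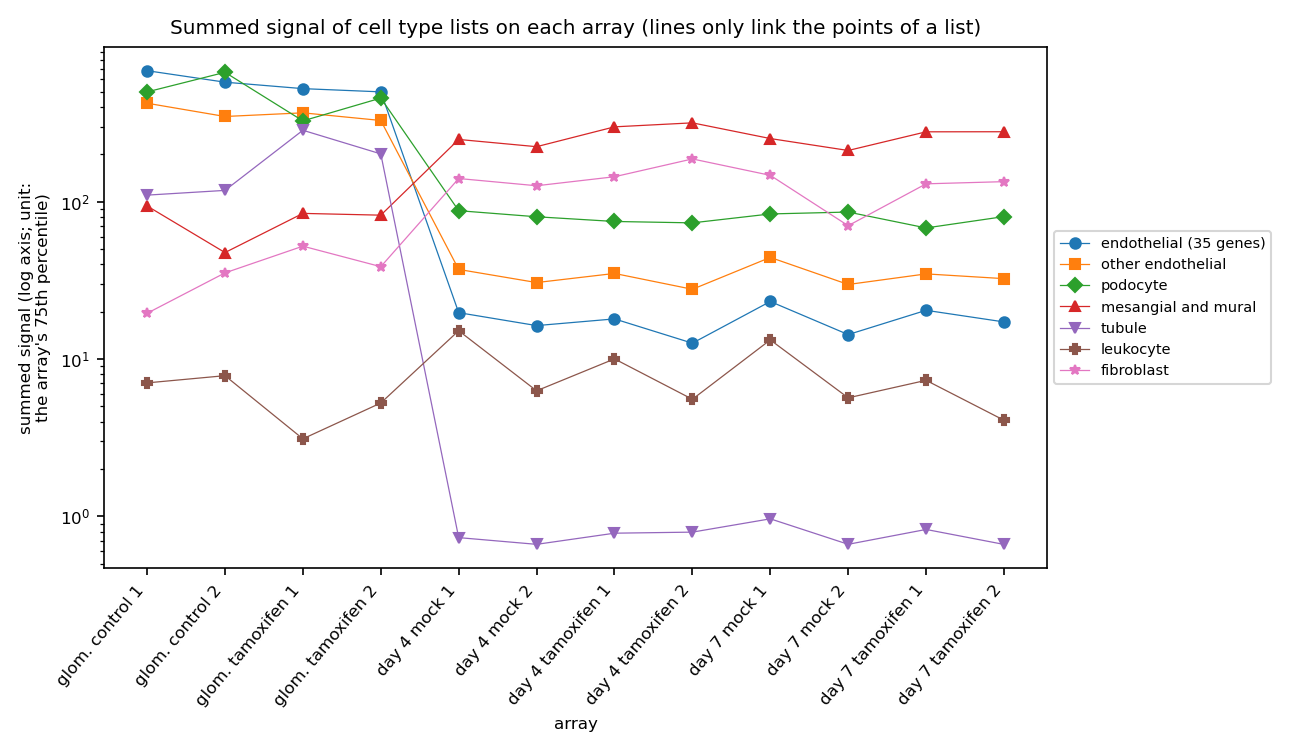
The summed signal of each marker list is plotted for the 12 arrays on a log axis, in units of the array's 75th percentile, and lines only link points of one list. The heights of different lists are not comparable, since a sum follows its brightest probes. The 35 endothelial genes drop from 575 to 680 in control glomeruli to 12.6 to 23.2 in cultures, and the tubule sum is higher in both treated glomeruli than in both controls.

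Glomeruli of tamoxifen-treated mice were compared with control glomeruli to ask whether the endothelial genes moved when Foxc1 and Foxc2 were targeted in the living kidney. By their means 31 of the 35 were lower in treated glomeruli (88.6%, against 57.3% of all genes), and 17 had both treated arrays below both controls (48.6%, against 28.1%). By limma 0 of 35 passed in either direction, against 2.62% of all genes, and 6 had an unadjusted p under 0.05. The fit takes a spread for each gene that all 12 arrays share. These SEs and p-values therefore also carry the scatter between culture replicates. The median difference was -0.34 for the members and -0.05 for all genes, and with other background corrections and scalings the members' median lay between -0.36 and -0.29. The same arrays differed in other cell type lists. Of 12 tubule markers, 11 were higher by their means (median 1.35), 2 of them passed, Slc22a6 and Slc12a1, and the summed signal was 110 to 118 in controls and 201 to 285 in treated glomeruli. Of 10 podocyte markers, 10 were lower (median -0.52), 1 of them passed, Synpo, and the summed signal was 499 to 664 and 326 to 456. Of 10 leukocyte markers, 9 were lower (median -1.17), 1 of them passed, Ms4a1, with sums of 7.05 to 7.84 and 3.11 to 5.25. The 8 red cell and platelet markers tested had sums of 30.1 to 65.7 and 1.13 to 6.28, 4 of them passing as lower (Alas2, Ppbp and a pair of globin genes that share near-identical copies), and all 11 mesangial and mural markers were higher by their means (median 0.38), 1 of them passing, Acta2. How far these lists bear on the endothelial values was not tested.

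**Figure D4:**
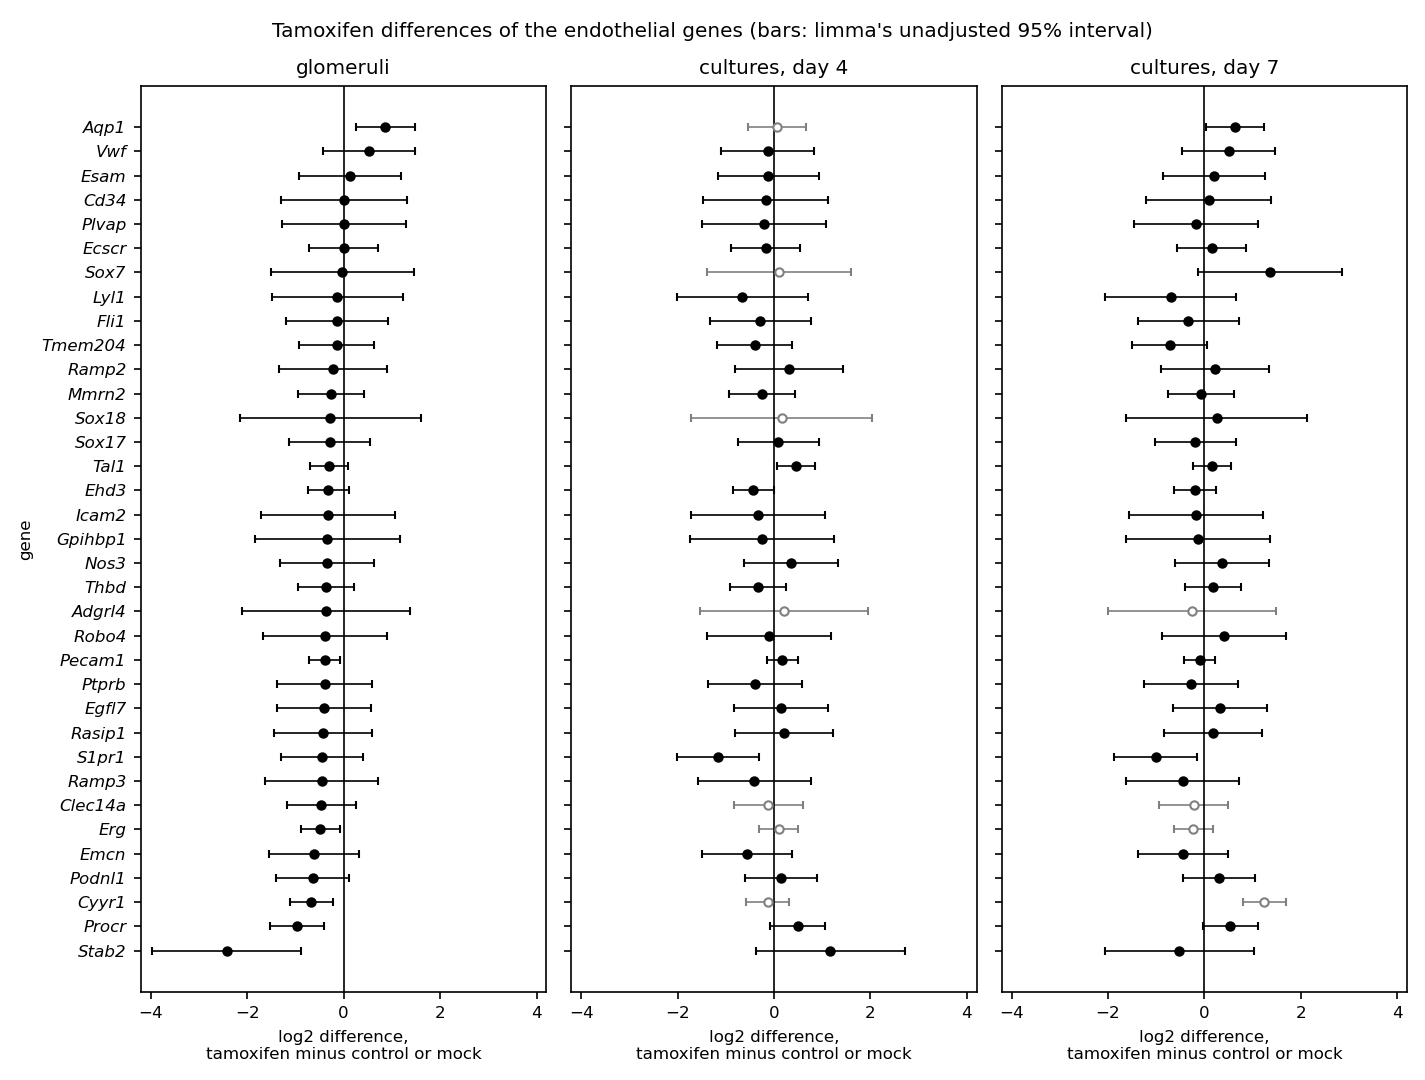
Points are log2 differences of tamoxifen minus control or mock samples (2 against 2 arrays) in glomeruli and in cultures at day 4 and day 7, with limma's unadjusted 95% interval as bars. Open grey points were not well above background in either group. In glomeruli most points lie slightly below 0, with Stab2 and Procr lowest and Aqp1 highest, and in cultures S1pr1 is lower on both days.

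Stab2 had the largest difference. Its control glomeruli were at 1.77 and 1.07 and its treated glomeruli at -0.05 and -1.95. Both treated arrays lay below both controls, yet they were far from each other, and the difference of -2.42 (SE 0.67, 95% interval -3.97 to -0.87) missed the threshold (adjusted p = 0.103 by limma). Leaving out one array at a time, or changing another setting, gave -3.37 to -1.47. Procr read 1.30 and 1.61 in controls and 0.60 and 0.39 in treated glomeruli, a difference of -0.96 (SE 0.24, interval -1.53 to -0.40, adjusted p = 0.0829). Here the arrays of each group lay close together and the groups were well apart. Cyyr1 read 2.74 and 2.66 against 1.92 and 2.14, a difference of -0.67 (SE 0.19, adjusted p = 0.113). Erg (-0.48, SE 0.17, adjusted p = 0.197) and Pecam1 (-0.39, SE 0.14, adjusted p = 0.191) were the others among the lower genes with an unadjusted p under 0.05. Emcn read 4.63 and 4.47 in controls and 4.00 and 3.89 in treated glomeruli (-0.61, SE 0.40, adjusted p = 0.477 by limma). The glomerular replicates of Emcn lay close together. Its SE includes the spread of its cultures, such as the day 4 mock cultures at 0.74 and 0.02.

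Aqp1 was the only member with both treated glomeruli above both controls (2.86%, against 19.8% of all genes). It read 2.71 and 2.41 in controls and 3.84 and 3.01 in treated glomeruli, a difference of 0.87 (SE 0.26, interval 0.26 to 1.47, adjusted p = 0.127). Without treated replicate 2 it passed (1.29, adjusted p = 0.025). Treated replicate 1, the higher for Aqp1, also had the highest summed tubule signal of the 12 arrays, at 285, and tubule cells express Aqp1. Whether they account for its difference was not tested. Vwf was higher by its mean (0.53, SE 0.42) with overlapping groups, and Cd34, Plvap and Ecscr differed by less than 0.01, with intervals of -1.30 to 1.30, -1.29 to 1.28 and -0.72 to 0.72. By role, 7 of 7 transcription factors were lower by their means (median -0.28), 7 of 7 receptors and signalling genes (median -0.41), 12 of 14 surface genes (median -0.35) and 5 of 7 of the others (median -0.36). Of the 42 other endothelial genes, 31 were lower by their means, 15 of the 42 had both treated arrays below both controls (35.7%), and 0 passed (median -0.25). The largest of their differences were those of Cldn5 (-0.79, SE 0.39, adjusted p = 0.331) and Aplnr, the apelin receptor (-0.63, SE 1.02, adjusted p = 0.799).

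**Figure D5:**
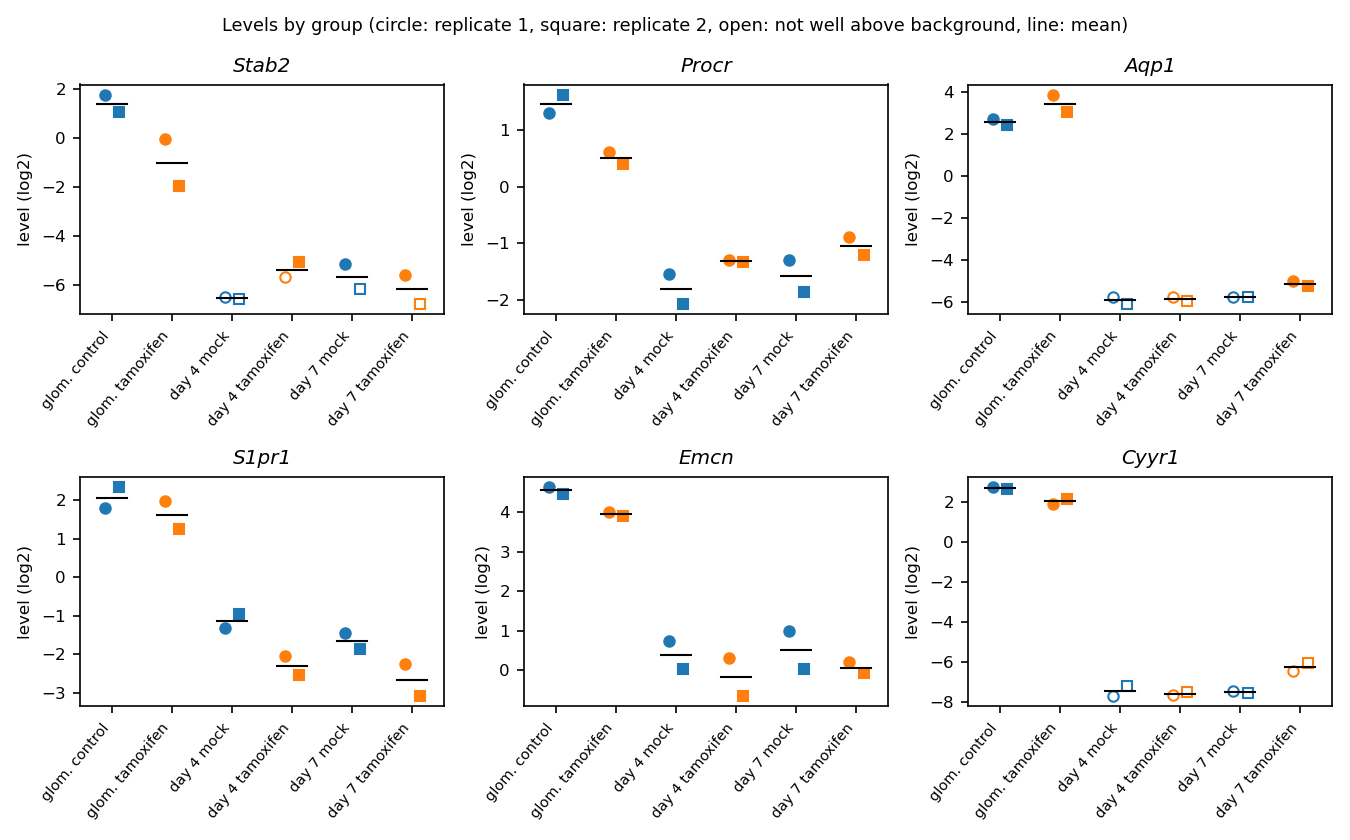
The log2 level of 6 genes is plotted for each array by group (circles replicate 1, squares replicate 2), with the group mean as a line and open symbols where the probe was not well above background. Blue marks control and mock samples and orange marks tamoxifen. Stab2 and Procr are lower in both treated glomeruli, S1pr1 is lower in treated cultures of both days, and Cyyr1 is open in every culture.

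In the cultures, tamoxifen was compared with mock treatment at each time. At day 4, 0 of 35 members passed by limma, against 0.21% of all genes, with 2 at an unadjusted p under 0.05, and 20 were lower and 15 higher by their means (median -0.12), against 46.7% of all genes lower. At day 7, 1 passed, against 0.972% of all genes, with 3 at an unadjusted p under 0.05, and 18 were lower and 17 higher by their means (median -0.08), against 49.4% of all genes lower. The groups were apart for 2 members as lower (5.71%, against 21.4% of all genes) and 4 as higher (11.4%, against 29.2%) at day 4. At day 7 they were apart for 3 as lower (8.57%, against 18.9%) and 4 as higher (11.4%, against 22.4%).

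S1pr1 was the member with the lowest difference on both days. At day 4 the mock cultures were at -1.32 and -0.95 and the treated ones at -2.05 and -2.54, a difference of -1.16 (SE 0.37, interval -2.01 to -0.30, adjusted p = 0.291). At day 7 they were at -1.44 and -1.87 against -2.26 and -3.08, a difference of -1.01 (SE 0.37, interval -1.87 to -0.15, adjusted p = 0.31). The treated cultures lay below the mock cultures on both days, and neither difference passed in any of 23 other settings, which gave -1.40 to -0.34 at day 4 and -1.42 to -0.60 at day 7. In glomeruli S1pr1 overlapped between the groups (-0.45, SE 0.37). Procr, lower in treated glomeruli, had higher values in treated cultures. At day 4 its mock cultures were at -1.54 and -2.06, below the treated ones at -1.29 and -1.33 (0.49, SE 0.24, adjusted p = 0.534). At day 7 it read -1.30 and -1.86 against -0.88 and -1.21 (0.54, SE 0.24, adjusted p = 0.441), with the groups again apart. For Tmem204 at day 7 the mock cultures were at -1.51 and -2.27 and the treated ones at -2.52 and -2.70 (-0.72, SE 0.34, adjusted p = 0.46), and for Ehd3 at day 4 they were at 1.47 and 1.54 against 1.18 and 0.98 (-0.43, SE 0.19, adjusted p = 0.46). Lyl1 overlapped between the groups on both days (-0.66 and -0.70, each SE 0.59), as did Emcn at day 4 (-0.56, SE 0.40, adjusted p = 0.707). For both genes, on both days, each treated culture lay below the mock culture of the same number. Among members read on all 8 culture arrays, S1pr1, Ramp3 and Tmem204 did so as well, while Nos3 and Procr lay above it each time. The share of all genes with such a pattern was not counted, and the labels do not say what a number shares. Among other endothelial genes the largest differences were at day 4 those of Sema3g, a secreted semaphorin (1.43, SE 0.54, adjusted p = 0.377), and the flow-responsive factor Klf2 (-1.32, SE 0.37, adjusted p = 0.229). At day 7 they were those of Lyve1 (-2.08, SE 1.46, adjusted p = 0.658) and Sema3g (1.79, SE 0.54, adjusted p = 0.204). None of them passed by limma.

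The call at day 7 was Cyyr1, by limma at an adjusted p of 0.0329 for a higher value, against 0.453% of all genes called higher, but its probe was not well above background on any culture array, so no size is given. Its mock cultures at day 7 were at -7.42 and -7.55 and its treated ones at -6.43 and -6.04, below the lowest levels called well above background on those arrays. When each of the 12 arrays was omitted in turn, the call was kept in 2 fits, those without a day 4 mock array. It was also lost with normexp background correction (adjusted p = 1) and with the groups compared alone (adjusted p = 0.312). Aqp1 was well above background in both treated cultures at day 7, at -5.00 and -5.23, and in neither mock culture, at -5.75 and -5.74 (adjusted p = 0.387 by limma). That change depends on the cut, since by the negative control spots Aqp1 was read on 7 of the 8 culture arrays. Sox7 and Sox18 were each read in 1 treated day 7 culture, and the Sox7 difference (adjusted p = 0.463) allows no bound above 1-fold. Stab2 was read in 1 treated culture on each day and in 0 mock cultures at day 4 (adjusted p = 0.609 by limma). With a treated array unread at day 4, no bound is given for that difference.

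Time in culture was compared in the mock samples. By limma 0 of 35 members passed between day 7 and day 4, against 0.0328% of all genes, with 1 at an unadjusted p under 0.05 (median -0.09). That one was Erg, not well above background at either time. Vwf (-0.74, SE 0.42) and Sox17 (-0.55, SE 0.36) were the next among members read at both times, each with an adjusted p of 0.9998. Stab2 was read in 1 mock culture, at day 7. Among other endothelial genes Myct1, a small membrane protein, differed most (0.80, SE 0.32, adjusted p = 0.672), followed by Aplnr, not well above background at either time. Each day set against control glomeruli gave 33 members called lower at day 4 and 34 at day 7, against 24.3% and 23.7% of all genes, with medians of -5.81 and -5.99.

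Whether the tamoxifen response differed between glomeruli and cultures was tested as the glomerular difference minus the mean of the culture differences. By limma 0 of 35 members passed, against 1.08% of all genes, with 5 at an unadjusted p under 0.05. Procr differed by -1.48 (SE 0.30, interval -2.17 to -0.79, adjusted p = 0.063), being lower in 2 of 2 treated glomeruli and higher in 4 of 4 treated cultures. Its adjusted p over 22 other settings was 0.0262 to 0.156. Cyyr1 missed the threshold (adjusted p = 0.0564) on cultures without readable signal, and Stab2 gave -2.74 (SE 0.82, adjusted p = 0.147). Podnl1 gave -0.87 (SE 0.40, adjusted p = 0.327), with neither treated glomerulus read. Among other endothelial genes Klf2 (1.49, SE 0.45, adjusted p = 0.151) and Gja5, a gap junction protein of arteries (1.31, SE 0.75, adjusted p = 0.436), differed most. Between the culture responses of day 7 and day 4, 0 of 35 members and 0 of all 15226 genes passed by limma, with 1 member at an unadjusted p under 0.05. The number of arrays limits every comparison, since 2 against 2 samples cannot give an exact permutation p under 0.333, and the adjusted p-values come from limma's fit across all genes.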

How the data were processed

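Each sample's RNA was measured on 1 Agilent one-colour array (Cy3), per the labels' protocols. The deposited scanner files hold background-subtracted spot intensity, per the file headers, and the submitters' processing notes name Agilent Feature Extraction 11.5.1.1. The value table that the authors deposited is on a log2 scale. Set against the arrays, its columns matched the log2 processed signal less the 75th percentile (r = 1, offsets of 0.0942 to 0.121, medians of -4.14 to -3.82), with no centring of genes, so scale, centring and direction are known.

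From the processed signal the log2 was taken and the 75th percentile subtracted (507 to 760 units, against a median local background of 24.5 to 34). Outlier spots (83 to 134 an array) and control spots were left out and spots of a probe averaged. Of 39429 probes, 26581 had 1 symbol, through RefSeq accessions (assembly GRCm38.p6, 26581 of 28115 matched), and 12848 had none. Probes well above background on at least 2 arrays were kept, and the probe with the highest mean stood for a gene. For 7 members with 2 probes, both fell in culture. Limma 3.58.1 in R 4.3.3 fitted 6 group means over 12 arrays (6 residual and 1.87 prior degrees of freedom). 0 array columns belonged to no sample.

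The fit was tested on simulated data. For tamoxifen in glomeruli 50% of 50 genes shifted by 1 log2 unit were called, 82% of those shifted by 2, and 92% of those shifted by 3 or by 4, beside 9 false calls (15226 genes).

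The members and lists were chosen with earlier results of these data known. The genes named are the members, with those past the threshold and the 4 largest differences below it in each comparison, and of the other endothelial genes the 4 largest called and the 2 largest uncalled. Genes named from other cell type lists are those that passed. Alternatives were normexp background correction (offset 50, on the median signal, since the files used here hold no mean signal, although the mean had been planned), median scaling, quantile normalization, the authors' table, no filter or a filter of 4 arrays, averaging probes of a gene, the replicate number as a block, eBayes with trend and robust options, the groups compared alone, and leaving out each array.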

Additional observations from a re-analysis of the deposited data

How the results depend on the processing

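The count of members passing in mock cultures against control glomeruli was 33 to 35 over all alternatives (33 to 34 leaving out 1 array), the changes falling on Vwf, Thbd and Podnl1. In that comparison the members' median was -6.04 to -4.55 over other scalings and background corrections, -4.55 being with normexp and -5.70 with median scaling, which moved the median of all genes from 0.17 to 0.41. For glomeruli with tamoxifen the count was 0 except 1 with a culture replicate block (Procr, adjusted p = 0.0364), and 0 to 1 leaving out 1 array, while 399 of all genes passed and 5 with normexp, 0 with only the groups compared and 79 to 494 leaving out 1 array. At day 4 it was 0 except with normexp, which gave 17 (16 higher, 1 lower), with 5053 of all genes called (32 without it) and the median of all genes moved from 0.02 to 0.19. With it Clec14a (1.22), Ptprb (1.02), Vwf (1.12) and Cyyr1 (1.43) reversed to a called rise; the cause was not tested. At day 7 the count was 0 with normexp and 0 with only the groups compared, and 0 to 1 leaving out 1 array. Between the glomerular and culture responses it was 2 with quantile normalization, 2 with the replicate block and 2 with the culture replicate block (Procr and Cyyr1 in each), and 0 leaving out 1 array. Mock day 7 against day 4 stayed at 0 in all. In comparisons where a member passed neither way, its sign could turn: 54 such turns over 24 members at day 4, 36 over 24 at day 7, 57 over 29 between mock days, 77 over 18 between responses and 23 over 12 in glomeruli.

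Replicate numbers are shared by the groups in the labels, with 2 pairs a comparison, and the labels do not say what a number shares. Deviations of same-numbered samples correlated at 0.21 between the glomerular groups and at 0.395 to 0.551 in all 6 pairs of culture groups. Same-numbered cultures thus deviated together, and overlap between culture groups includes this offset. With the replicate block the counts were 34 in mock cultures against glomeruli, 0 in glomeruli, 0 at day 4, 1 at day 7, 0 between mock days and 2 between responses. The block shared by the cultures alone was chosen after seeing the data. The slide was not run as a block, since it is a sum of groups and leaves each tamoxifen difference as it is; the fit of only the groups compared gives the values within a slide. Signal over background limits the 11 members not read on all culture arrays and Podnl1 in glomeruli.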

Other observations

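Most, but not all, of the endothelial genes read throughout the cultures differed between the numbered cultures in the same direction in every culture group. Of the 24 members read on all 8 culture arrays, 16 (66.7%) were higher in replicate 1 than in replicate 2 in all 4 culture groups and 0 were lower in all 4, against 16.6% and 22.8% of the 12750 genes read on all 8 arrays. Icam2 showed this, at -1.20 and -1.87 in day 4 mock, -1.48 and -2.25 in day 4 tamoxifen, -0.38 and -2.35 in day 7 mock and -1.17 and -1.90 in day 7 tamoxifen cultures. Among other endothelial genes 17 of 30 were higher in replicate 1 throughout and 3 of 30 in replicate 2. Leukocyte markers did so in 6 of 8 cases, fibroblast markers in 4 of 6 (66.7%, the same share as the members), mesangial and mural markers in 4 of 11 and podocyte markers in 0 of 10, with 5 of 10 higher in replicate 2 throughout. The summed leukocyte signal was 15.1 and 6.28 in day 4 mock, 10.02 and 5.55 in day 4 tamoxifen, 13.2 and 5.67 in day 7 mock and 7.32 and 4.08 in day 7 tamoxifen cultures. Lyve1, a hyaluronan receptor of lymphatic endothelium and of some macrophages, read -1.28 and -4.84, -2.44 and -5.40, -2.05 and -4.60, and -4.61 and -6.19 in the same order. The labels do not say what same-numbered cultures share, and the cause was not tested.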
